A study of Mus musculus with 18 samples.

Results

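The genes described here are 10 markers of alveolar type 1 cells, chosen by symbol: Rtkn2, Hopx, Ager, Aqp5, Pdpn, Akap5, Clic5, Emp2, Gprc5a and Cav1. Every probe set annotated to one of these symbols alone was taken, which gave 10 probe sets for 7 of the 10 genes, out of 22690 probe sets and 12393 genes in the whole table. Hopx had 2 probe sets, Emp2 had 3 and the other 5 genes had 1 each. Akap5, Clic5 and Gprc5a had no probe set of a single symbol and are not analysed here.

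Log2 signals were measured on single-colour arrays in 18 lung tumours dissected from 6 mice of the strain C57/B6-129SvJae, aged 10 weeks. The treated grade 3 group held 6 tumours, all of the female mouse 8688. The untreated grade 3 group held 4 tumours of the male mice 8584, 8565 and 8629. The treated grade 2 group held 3 tumours of mouse 8688 and 1 of the male mouse 8639, and the untreated grade 2 group held 4 tumours of the male mice 8700 and 8565. The labels call grade 3 tumours adenocarcinomas and grade 2 tumours adenomas. Treated mice received tamoxifen in 2 injections and their tumours, in which the labels say p53 was restored, were taken on day 7 after the first one. In the published model the mice carry a K-ras allele that is activated by chance recombination, a p53 gene silenced by a removable stop cassette, and a tamoxifen-dependent Cre expressed from the Rosa26 locus, which is active in most cell types. The labels give no alleles, so whether the untreated mice carried all of them is not known here. No mouse carried treated and untreated tumours, and every treated grade 3 tumour came from 1 animal of a sex not found among the untreated mice. In grade 3, treatment, animal and sex therefore cannot be told apart. In grade 2, treatment and animal cannot be told apart either, and sex differs from treatment only through the tumour of mouse 8639. The difference between the treatment differences of the grades shares these limits.

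Alveolar type 1 cells are the thin, flat cells that cover most of the gas exchange surface of the lung. They arise from embryonic progenitors and, in the adult lung after injury, from alveolar type 2 cells, the cuboidal cells that make surfactant and can also give rise to lung adenomas and adenocarcinomas. Their markers include membrane proteins of the thin cell body, such as the receptor encoded by Ager and the water channel encoded by Aqp5. The comparisons ask whether these genes differ between treated and untreated tumours in either grade, and whether that difference depends on grade. They also ask whether the genes differ between grades. The labels give no injections for the untreated mice, so tamoxifen and p53 restoration cannot be told apart.

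All 7 genes lay above the array's median signal on all 18 arrays, where the medians ran from 6.05 to 6.18, so none entered the test through 1 group alone. In bulk tumour RNA, fewer cells of a type and less RNA per cell cannot be told apart. The excess of 3′ over 5′ signal, a sign of RNA breakdown, was averaged over the 2 of 4 control transcripts, Gapdh and beta-actin, whose 5′ signals all exceeded their array's median. It was highest in the treated tumours 8688T3 (grade 3, 2.62 on the log2 scale) and 8639T4 (grade 2, 1.85), against at most 1.05 in the other tumours. Of the other control transcripts, pyruvate carboxylase had a 3′ excess of 3.90 to 4.70 in treated and 3.00 to 3.66 in untreated tumours, without overlap, and the transferrin receptor had 2.23 to 3.03 in treated and 2.48 to 3.12 in untreated tumours.

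Promoters were read from RefSeq (GRCm38.p6) as 250 bases before to 50 bases after each listed start. A promoter was found for 8 of the 10 genes and for 6 of the 7 measured ones, with Rtkn2 and Gprc5a the genes without one. Those of Hopx are shown because Hopx differed most between groups after Rtkn2, and those of Ager, Aqp5 and Pdpn because their signals moved together between tumours. Capitals mark the motif matches described after the sequences.
Hopx, first listed start, chr5:77115074-77115373, minus strand: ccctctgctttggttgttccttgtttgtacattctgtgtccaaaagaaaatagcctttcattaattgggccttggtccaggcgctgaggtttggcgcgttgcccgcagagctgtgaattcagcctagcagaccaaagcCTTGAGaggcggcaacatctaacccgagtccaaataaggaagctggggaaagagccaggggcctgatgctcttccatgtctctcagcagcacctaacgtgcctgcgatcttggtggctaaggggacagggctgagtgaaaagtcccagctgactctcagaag
Hopx, other listed start, chr5:77095218-77095517, minus strand: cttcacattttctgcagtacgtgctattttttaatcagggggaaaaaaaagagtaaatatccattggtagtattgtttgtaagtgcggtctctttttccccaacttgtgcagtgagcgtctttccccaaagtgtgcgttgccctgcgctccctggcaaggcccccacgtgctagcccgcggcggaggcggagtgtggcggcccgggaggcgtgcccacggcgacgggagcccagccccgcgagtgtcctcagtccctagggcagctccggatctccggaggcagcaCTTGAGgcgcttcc
Ager, chr17:34597600-34597899, plus strand: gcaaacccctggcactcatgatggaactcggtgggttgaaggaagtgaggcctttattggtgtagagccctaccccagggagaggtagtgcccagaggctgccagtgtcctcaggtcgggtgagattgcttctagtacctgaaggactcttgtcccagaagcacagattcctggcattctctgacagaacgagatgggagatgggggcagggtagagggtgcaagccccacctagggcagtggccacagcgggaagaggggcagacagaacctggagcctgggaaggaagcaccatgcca
Aqp5, chr15:99590778-99591077, plus strand: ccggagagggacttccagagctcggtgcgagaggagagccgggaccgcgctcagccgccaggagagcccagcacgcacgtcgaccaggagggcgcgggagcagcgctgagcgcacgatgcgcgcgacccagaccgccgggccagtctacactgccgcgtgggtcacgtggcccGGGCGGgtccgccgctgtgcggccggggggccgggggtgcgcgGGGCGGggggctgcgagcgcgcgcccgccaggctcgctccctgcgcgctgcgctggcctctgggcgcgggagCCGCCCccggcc
Pdpn, chr4:143299515-143299814, minus strand: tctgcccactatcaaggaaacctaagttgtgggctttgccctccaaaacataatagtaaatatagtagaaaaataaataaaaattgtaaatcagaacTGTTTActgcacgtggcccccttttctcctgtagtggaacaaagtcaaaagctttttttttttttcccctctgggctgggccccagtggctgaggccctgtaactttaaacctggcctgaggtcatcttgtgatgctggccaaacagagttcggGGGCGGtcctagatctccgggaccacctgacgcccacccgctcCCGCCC

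Motifs were searched as letters on both strands in the 8 promoters of the measured genes. The NKX2-1 core CTCAAG, named for a lung lineage transcription factor, occurred in both Hopx promoters and in no other, on the reverse strand, at position -112 from one start and 37 from the other. It was present in 15.9% of 32851 promoters of this length. A forkhead core, TGTTTA, occurred once, in the Pdpn promoter at position -153 from the start, and in 13.4% of all promoters. GC boxes (GGGCGG) occurred in 4 of the 8 promoters, those of Aqp5, Pdpn, Emp2 and the first of Cav1, and in 35.7% of all. The TATA box letters TATAAA occurred in 1 promoter of Cav1, on the reverse strand at position -221 from the start, and in 13.6% of all. The TEAD core GGAATG, the AP-1 motif TGANTCA and the p53 half-site had 0 matches in the 8 promoters, against 14.7%, 7.81% and 8.36% of all promoters. These counts describe letters in short windows only.

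Rtkn2 was the only one of the 7 genes that passed the test in any comparison. It is used as a marker of type 1 cells. Its log2 signal in the treated grade 3 tumours ran from 9.60 to 10.38 with a median of 10.13. In the untreated grade 3 tumours it was 7.93 in 8584T3, 8.68 in 8565T1, 8.39 in 8629T10 and 7.63 in 8629T12. Every treated tumour was above every untreated one. The treated mean was 10.07 ± 0.28 (SD, n = 6), against an untreated mean of 8.16 ± 0.47 (SD, n = 4). The Rtkn2 signal was higher in the treated tumours by 1.95 on the log2 scale in limma's fit (SE 0.25). This is a 3.85-fold higher signal, with limma's adjusted p = 0.00150 over 7300 genes. In this comparison 34 genes were called, 0.466% of those tested, and 14 of them, 0.192%, were higher. P-values over tumours are too small, since tumours of a mouse are not independent. With 1 mean per mouse and group, the difference was 1.86 and the call was lost. That fit holds 1 value for the treated grade 3 group, which gives no spread there. It also takes the means of a mouse in different groups as independent. With sex as a covariate it was 2.27 (SE 0.41, adjusted p = 0.0388), an estimate that rests on 8639T4, the only treated tumour of a male. The 3′ excess of pyruvate carboxylase also separated treated from untreated tumours, and its part in the Rtkn2 difference was not tested. That transcript's 5′ signal did not exceed the median on every array.

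In grade 2, Rtkn2 was 9.98 in 8688T8, 9.79 in 8688T9, 9.50 in 8688T10 and 10.14 in 8639T4 of the treated group, against 9.52 and 9.27 in 8700T1 and 8700T3 and 9.27 and 9.45 in 8565T3 and 8565T4 of the untreated group. The groups overlapped by the treated tumour 8688T10. Treated tumours averaged 9.85 ± 0.28 and untreated ones 9.38 ± 0.13 (SD, n = 4 each), and the difference of 0.58 (SE 0.26) did not pass (limma, adjusted p = 0.695). The difference between the treatment differences of grade 3 and grade 2 was 1.37 (SE 0.29), which did not pass either (limma, adjusted p = 0.315). Leaving out 1 tumour in turn gave 1.23 to 1.65, with limma's adjusted p from 0.0400 to 0.9637, and only the fit without the untreated grade 3 tumour 8565T1 passed.

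The 4 untreated grade 3 tumours also had less Rtkn2 signal than the 4 untreated grade 2 tumours without overlap, by 1.13 (SE 0.23), just outside the threshold at adjusted p = 0.0553 in limma's fit. It passed when 8688T2, 8639T4, 8688T10, 8565T1 or 8629T10 was left out, with limma's adjusted p between 0.0140 and 0.0497. Over all 18 such fits the difference ran from -1.40 to -0.98 and limma's adjusted p up to 0.326. In mouse 8565, the only mouse with untreated tumours of both grades, the grade 3 tumour had 8.68 and the grade 2 tumours averaged 9.36. With the mouse as a fixed block, which rests on that mouse, the difference was -0.68 (SE 0.34, limma, adjusted p = 0.9997). Mouse 8688, with treated tumours of both grades, averaged 10.07 over 6 grade 3 tumours and 9.76 over 3 grade 2 tumours. The fitted grade difference among treated tumours was 0.25 (SE 0.18).

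**Figure D1:**
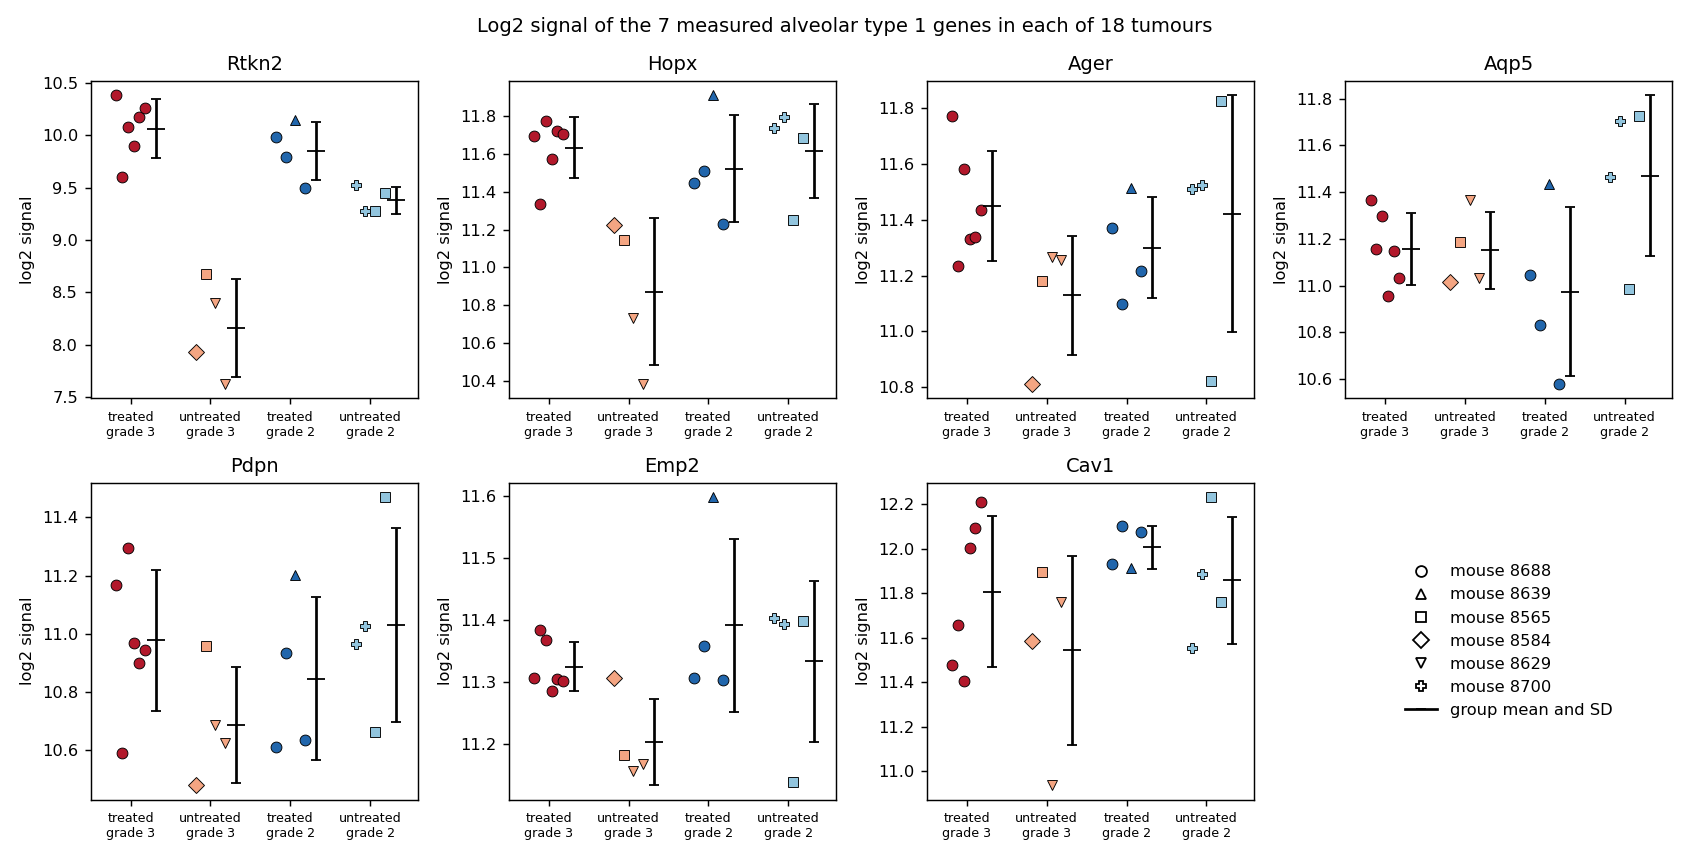
Log2 signal of each of the 7 measured genes in 18 tumours, by group along the x axis, with marker shapes for the 6 mice and bars for the group mean and SD. For Rtkn2 the 6 treated grade 3 tumours lie between 9.60 and 10.38 and the 4 untreated grade 3 tumours between 7.63 and 8.68, while for Emp2 and Aqp5 those groups overlap.

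Hopx encodes a small homeodomain protein that does not bind DNA itself and marks type 1 cells. In the treated grade 3 tumours it ran from 11.33 to 11.78, with a mean of 11.63 ± 0.16 (SD, n = 6). In the untreated grade 3 tumours it was 11.22 in 8584T3, 11.15 in 8565T1, 10.73 in 8629T10 and 10.38 in 8629T12, with a mean of 10.87 ± 0.39 (SD, n = 4). The groups did not overlap, as for Rtkn2, with the treated tumour 8688T2 (11.33) and the untreated tumour 8584T3 (11.22) next to each other. The difference of 0.79 (SE 0.21) did not pass (limma, adjusted p = 0.118). Leaving out 1 tumour in turn gave 0.67 to 0.91, with limma's adjusted p from 0.0221 to 0.259, and it passed only without 8584T3. Over all genes, 2.84% were higher without overlap in this comparison, so 2 of 7 members stood against that share. Hopx was 11.52 ± 0.28 in treated and 11.62 ± 0.25 in untreated grade 2 tumours (SD, n = 4 each), with a difference of -0.01. It was lower in untreated grade 3 than in untreated grade 2 tumours by a fitted difference of -0.65 (SE 0.19), also without overlap and not passing (limma, adjusted p = 0.182). In mouse 8565 the values were 11.15 in the grade 3 tumour and 11.25 and 11.69 in the grade 2 tumours.

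The other probe set of Hopx had a lower signal. Its differences had the same sign for treatment in grade 3 and for grade in untreated tumours, and the other sign for treatment in grade 2. It averaged 9.40 ± 0.32 (SD, n = 6) in treated grade 3 tumours, and in untreated grade 3 tumours it was 9.02, 8.52, 8.38 and 7.45. The grade 3 groups overlapped there. Its fitted differences were 0.997 (SE 0.31) for treatment in grade 3, 0.15 in grade 2 and -0.89 (SE 0.28) for grade in untreated tumours, none of which passed in a fit of every probe set.

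**Figure D2:**
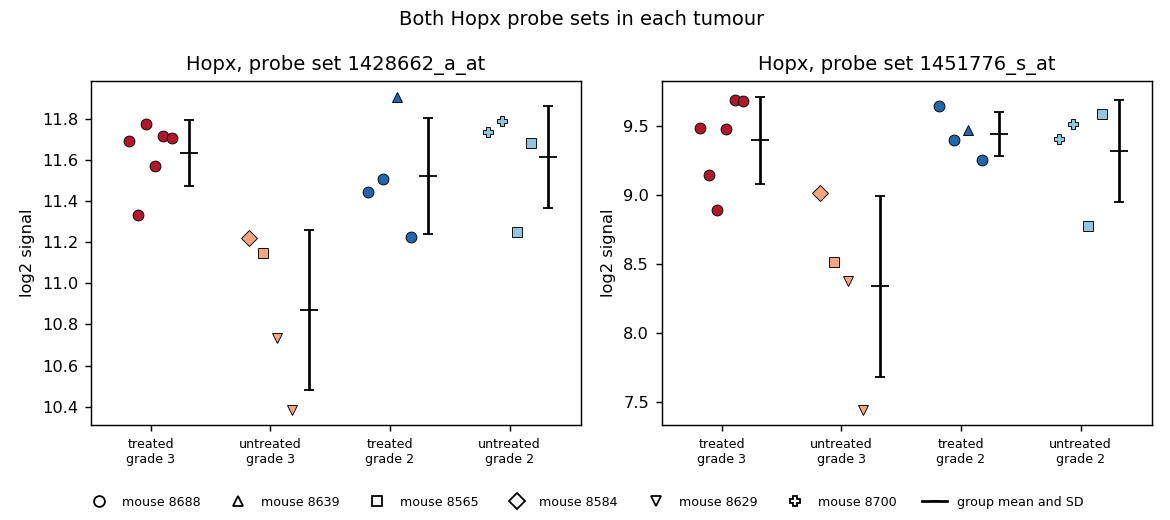
Log2 signal of the 2 Hopx probe sets in each tumour, by group along the x axis, with marker shapes for the mice and bars for the group mean and SD. In both panels the untreated grade 3 tumours have the lowest group mean, 10.87 in the left panel and 8.34 in the right one.

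Ager, Aqp5 and Pdpn encode surface proteins of the type 1 cell: the receptor for advanced glycation end products, the water channel aquaporin 5 and the glycoprotein podoplanin, which lymphatic vessels and mesothelium also carry. None differed by more than 0.54 in size in any comparison, and none passed. In grade 3, Ager averaged 11.45 ± 0.20 over treated and 11.13 ± 0.21 over untreated tumours (SD, n = 6 and 4), which limma fitted as 0.37 (SE 0.22). Pdpn averaged 10.98 ± 0.24 over treated and 10.69 ± 0.20 over untreated grade 3 tumours (SD, n = 6 and 4), and its fitted difference was also 0.37 (SE 0.22). Both genes had overlapping groups. Aqp5 was 11.16 ± 0.15 in treated and 11.15 ± 0.16 in untreated grade 3 tumours (SD, n = 6 and 4). In grade 2 Aqp5 was 11.05, 10.83 and 10.58 in the treated tumours of mouse 8688 and 11.44 in 8639T4, against 11.46, 11.71, 10.99 and 11.72 in untreated tumours. That difference, -0.43 (SE 0.22), did not pass (limma, adjusted p = 0.741), and the groups overlapped through 8639T4, 8565T3 and 8688T8.

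Emp2 encodes a membrane protein with 4 spans and Cav1 encodes caveolin 1, the coat protein of caveolae, which endothelial cells also express strongly. Emp2 varied least. It averaged 11.32 ± 0.04 in treated and 11.20 ± 0.07 in untreated grade 3 tumours (SD, n = 6 and 4), with a difference of 0.16 (SE 0.11). Its other 2 probe sets differed by 0.17 and -0.22 there, and none passed. The one with -0.22 had 5.06 in the treated tumour 8688T3, under that array's median, against 7.05 to 7.47 in the other treated and 6.41 to 7.46 in the untreated grade 3 tumours. Without 8688T3, a fit added after seeing the data, its difference was 0.11 (SE 0.26, limma, adjusted p = 0.964). Cav1 averaged 11.81 ± 0.34 in treated and 11.54 ± 0.42 in untreated grade 3 tumours (SD, n = 6 and 4), with a difference of 0.23 (SE 0.26). In grade 2 its means were 12.01 ± 0.10 in treated and 11.86 ± 0.28 in untreated tumours (SD, n = 4 each).

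Taking the 7 genes by comparison, the fitted treatment difference in grade 3 was above 0 for 7 of 7, with a median of 0.37 against 0.04 over all genes, of which 56.9% lay above 0. The sign of Aqp5 turned with array weights (-0.10) and without 8688T3 and 8639T4 (-0.03). In grade 2 it was above 0 for 3 and below 0 for 4, with a median of -0.01 against 0.02 over all genes, of which 53.9% lay above 0. Limma called 0 members and 0.0685% of all genes there. At an unadjusted p under 0.05 there was 1 member (Rtkn2), against 6.99% of all genes. The difference of the treatment differences was above 0 for 7 of 7, with a median of 0.48 against 0.02 over all genes, of which 52.8% lay above 0. The sign of Cav1 turned without 8688T11, 8629T10 or 8565T3, down to -0.10. With mouse means the sign of Emp2 turned (-0.02), and without mouse 8629 only 6 genes were above 0. Limma called 0 members and 0% of all genes there. At an unadjusted p under 0.05 there were 3 members (Rtkn2, Hopx and Aqp5), against 9.11% of all genes. Grade 3 minus grade 2 in untreated tumours was below 0 for 7 of 7, with a median of -0.30, while 50.1% of all genes lay below 0. Limma called 0 members and 0.178% of all genes. At an unadjusted p under 0.05 there were 2 members (Rtkn2 and Hopx), against 12.5% of all genes, and the same 2 were lower without overlap, against 3.03%. In treated tumours the same difference was above 0 for 5 and below 0 for 2, with a median of 0.17, while 55.5% of all genes lay above 0. Limma called 0 members and 0% of all genes, with 0 members and 1.93% of all genes at an unadjusted p under 0.05. The comparisons that involve untreated grade 3 tumours share those tumours, and their values are therefore not separate evidence. The untreated grade 3 group had the lowest mean for 6 of 7 genes, and for 2484 of all 7300 genes tested. Aqp5 was lowest in treated grade 2 tumours.

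**Figure D3:**
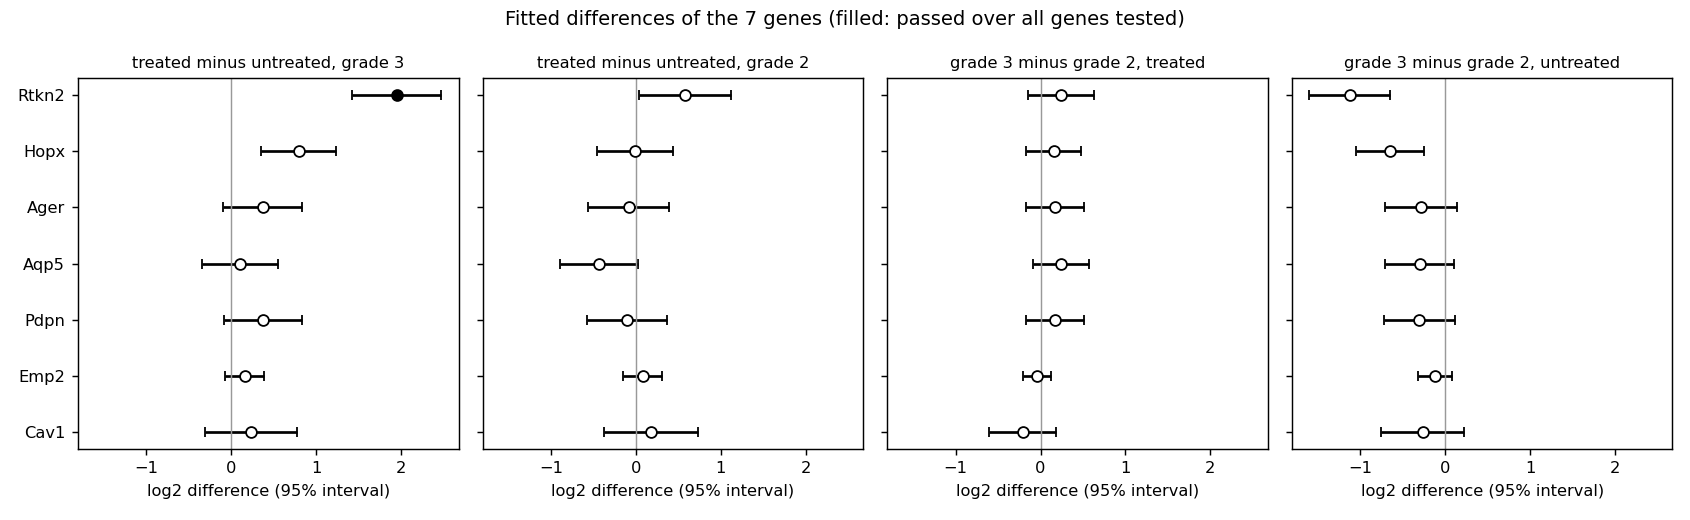
Fitted log2 differences (x axis) of the 7 genes (rows) in 4 comparisons, 1 per panel, with bars for the confidence interval and filled points where a gene passed over all genes tested. Rtkn2 in grade 3 (1.95) is the only filled point, and the 7 differences of untreated grade 3 minus grade 2 tumours run from -1.13 to -0.12.

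The genes also varied together among tumours of a group. Over the 18 tumours, 18 of 21 gene pairs had a correlation above 0, from -0.45 to 0.82 with a median of 0.51. Of deviations from the group means, 15 of 21 were above 0, with the highest values for Ager with Aqp5 (0.79), Ager with Pdpn (0.74) and Aqp5 with Emp2 (0.695). Cav1 was below 0 with all 6 other genes, down to -0.57 with Aqp5. These correlations share the arrays and the normalisation and are given as a description. The share of all gene pairs above 0 was not computed, so the counts are not read as particular to these genes. Single tumours carried part of this pattern. In treated grade 2 tumours, 8639T4 was highest for 6 genes and lowest for Cav1, and it was also 1 of the 2 tumours with a large 3′ excess. In untreated grade 2 tumours, 8565T3 was lowest for 6 genes, level with 8700T3 for Rtkn2 at 9.27, and highest for Cav1. The part of RNA quality in these values was not tested. Leaving out both tumours with the largest 3′ excess moved the grade 2 treatment difference of Aqp5 from -0.43 to -0.64 and of Pdpn from -0.11 to -0.27. That of Emp2 moved from 0.08 to -0.01, while that of Cav1 went from 0.18 to 0.22. For Hopx it moved from -0.01 to -0.18, for Ager from -0.08 to -0.18 and for Rtkn2 from 0.58 to 0.45. In the same fit the Rtkn2 difference in grade 3, a separate result, was 1.88 (SE 0.28, limma, adjusted p = 0.004995).

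A list of 30 other type 1 genes had 28 measured and 26 tested. In grade 3, 24 of 26 treatment differences were above 0, with a median of 0.30, and limma called 0 (8 at an unadjusted p under 0.05, against 8.84% of all genes). Sema3a, a secreted guidance protein, came closest: the treated grade 3 mean was 8.77 ± 0.22 (SD, n = 6), against 7.42 ± 0.66 (SD, n = 4) for untreated ones, and limma's difference of 1.22 had an adjusted p = 0.0729. In untreated tumours, 20 of 26 grade differences were below 0, with a median of -0.21. The mean over the 26 genes ran from 9.38 to 9.71 in the untreated grade 3 tumours, against 9.81 or more in every other tumour. The mean over the 7 genes ran from 10.55 to 10.89 in the untreated grade 3 tumours, against 10.91 or more in every other tumour. Without Rtkn2, an alternative added after seeing the data, the groups overlapped: the mean of the other 6 genes was 11.26 in 8565T1 and 11.02 to 11.07 in the other untreated grade 3 tumours, against 11.17 in 8688T10, 11.18 in 8565T3 and 11.23 in 8688T2. For the difference of the treatment differences, 20 of the 26 genes were above 0, with a median of 0.29 and 0 called (6 at an unadjusted p under 0.05). Of 15 tested regulators of the type 1 fate, such as members of the Hippo pathway, 10 were above 0 in grade 3 with a median of 0.10 and 0 called (2 at an unadjusted p under 0.05). For grade in untreated tumours 12 of them were below 0, with a median of -0.23 and 0 called (3 at an unadjusted p under 0.05). The regulators were not split by whether they favour or oppose the type 1 fate, so these counts give no direction for it. Their list also shares a gene with the fibroblast list. Over all genes, 56.9% were above 0 for treatment in grade 3 and 50.1% below 0 for grade in untreated tumours. For the difference of the treatment differences 52.8% were above 0. At an unadjusted p under 0.05 these 3 comparisons had 8.84%, 12.5% and 9.11% of all genes.

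Lists of markers of other cell types had in part the same signs. Over all genes, 56.9% were above 0 for treatment in grade 3 and 50.1% below 0 for grade in untreated tumours. At an unadjusted p under 0.05 these comparisons had 8.84% and 12.5% of all genes, with 0.466% and 0.178% called. Of 16 alveolar type 2 genes, 15 were above 0 for treatment in grade 3, with a median of 0.27. In untreated tumours 15 were below 0 for grade, with a median of -0.35, and limma called 0 in both (0 and 3 at an unadjusted p under 0.05). Their mean ran from 11.64 to 12.04 in treated and from 11.30 to 11.85 in untreated grade 3 tumours, so these groups overlapped. Of 17 endothelial genes, 12 were above 0 for treatment in grade 3 (median 0.27) and 17 below 0 for grade in untreated tumours (median -0.43), with 0 called (2 and 6 at an unadjusted p under 0.05). Their mean ran from 8.33 to 8.72 in treated and from 8.08 to 8.77 in untreated grade 3 tumours. Of 11 fibroblast genes, 6 were above 0 in grade 3 and 10 below 0 for grade in untreated tumours. Fbln1, an extracellular matrix protein, was lower by 1.95 (SE 0.35, limma, adjusted p = 0.0248) in untreated grade 3 than in untreated grade 2 tumours. Its means were 5.18 ± 0.94 in grade 3 and 7.27 ± 0.50 in grade 2 (SD, n = 4 each). The grade 3 mean lies under the array medians. The call was lost with the mouse as a fixed block, at -1.18 (SE 0.33, limma, adjusted p = 0.9997), and with mouse means, at -2.05 (SE 0.60, limma, adjusted p = 0.736). The fibroblast mean ran from 9.73 to 10.16 in treated grade 3 tumours, and it was 10.12 in the untreated tumour 8565T1, against 9.32 to 9.46 in the other untreated grade 3 tumours. Of 8 macrophage genes, 4 were above 0 in each of these comparisons, with medians of 0.03 and 0.00. Their mean ran from 9.06 to 9.58 in treated and from 9.18 to 9.31 in untreated grade 3 tumours. The lymphatic and mesothelial lists, which bear on Pdpn, had only 2 tested genes each, with medians of 0.40 and 0.39 for treatment in grade 3 and -0.42 and 0.06 for grade in untreated tumours. Of 10 genes of transitional epithelium 3 were above 0 for treatment in grade 3, with a median of -0.05, and of 4 club and ciliated cell genes 1 was, with a median of -0.76. For grade in untreated tumours 5 transitional genes were below 0 and 5 above, with a median of -0.01, and 4 of 4 club and ciliated cell genes were below 0, with a median of -0.36. The difference of the treatment differences was above 0 for 15 of 16 alveolar type 2 genes (median 0.55), 16 of 17 endothelial genes (median 0.44) and 10 of 11 fibroblast genes (median 0.52). Limma called 0 of each there (3, 2 and 4 at an unadjusted p under 0.05). Over all genes 52.8% were above 0 there, 0% were called and 9.11% had an unadjusted p under 0.05. The part of these cell types in the differences of the 7 genes was not tested.

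**Figure D4:**
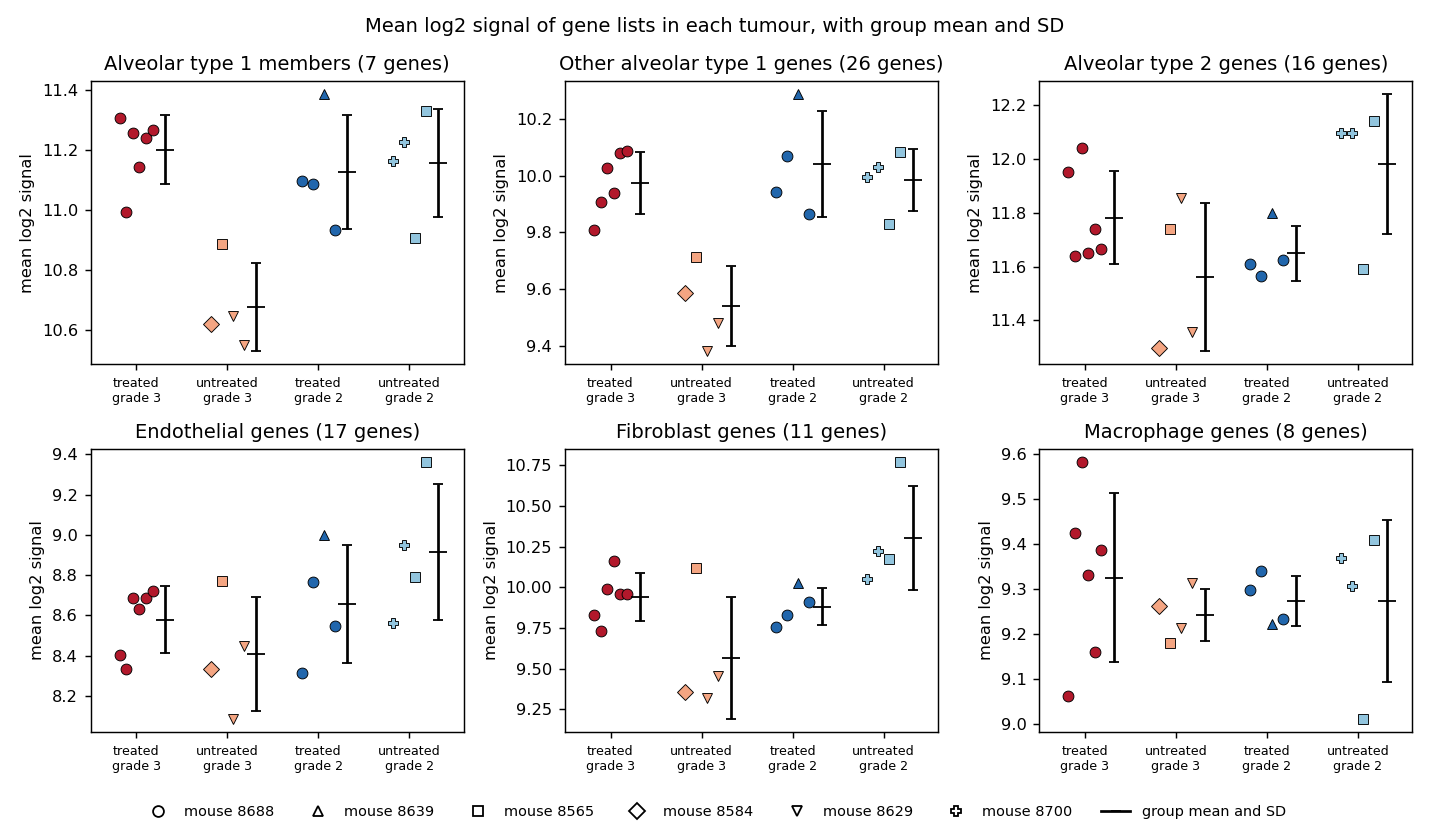
Mean log2 signal of gene lists in each tumour, by group along the x axis, with marker shapes for the mice and bars for the group mean and SD. The untreated grade 3 tumours lie lowest for both type 1 lists, by a margin that for the 7 genes depends on Rtkn2, while their alveolar type 2 and endothelial means overlap those of the treated grade 3 tumours.

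The 5 tested genes whose signal was most like that of Rtkn2 over the 18 tumours, by Pearson's r, were Fancl (0.91), Sema3a (0.90), Pctp (0.90), Ifit3 (0.88) and Map3k20 (0.88). Fancl lay near the array medians of 6.05 to 6.18, at 5.58 to 6.04 in untreated and 6.19 to 6.43 in treated grade 3 tumours. Map3k20 ran from 5.50 to 6.34 in untreated grade 3 tumours. In grade 3, Ifit3, an interferon-induced gene, averaged 9.48 ± 0.16 over treated (SD, n = 6) and 7.35 ± 0.92 over untreated tumours (SD, n = 4). The 5 genes whose deviations from the group means were most like the mean deviation of the 7 genes were Ppp1r2 (0.88), Col4a1 (0.88), Tnfaip1 (0.87), Zfr (0.87) and Lamp1 (0.86). These are the highest of 7300 genes and carry no test.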

How the data were processed

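Total RNA (100 ng per tumour, per the labels' protocols) was hybridised to arrays, and the authors deposited GCRMA log2 signals per probe set. The submitters' processing notes name GCRMA 2.20.0 and R 2.11.0. GCRMA normalises between arrays, so a difference in total RNA between tumours is not visible. The sources used here give no scan batch. The number of tumours limits the precision.

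Of 22690 probe sets, 64 were controls, 1555 had no gene symbol, 691 had several and 20380 had 1, of which 20351 matched the reference table. The probe set with the highest mean stood for each of 12393 genes. The test took the 7300 genes whose signal exceeded the array median on 4 or more arrays. With limma 3.58.1 (R 4.3.3), 4 group means were fitted over 18 tumours, the mouse being a random block (correlation 0.259). P-values were adjusted by Benjamini-Hochberg over all genes tested, with a threshold of 0.05. The tumours of a mouse are separate samples of 1 animal, so p-values were computed over tumours, with 1 mouse correlation shared by all genes. The treated grade 3 group had 1 mouse, so that group gives no spread between animals. The steps were tested on simulated data. Groups came from the tumour titles.

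The 10 genes, the lists and the tests were chosen with earlier results of these data known. By rule, all 10 genes are named, called genes of other lists, others only with their values, and the 5 genes most like Rtkn2 and the 5 most like the members' mean deviation. The alternatives were other mouse terms, sex, filters, probe set choices, scalings, spread models, array weights, and leaving out tumours or mice other than 8688. Settings for Fbln1, an Emp2 probe set without 1 tumour and the members' mean without Rtkn2 were added after seeing the data.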

Additional observations from a re-analysis of the deposited data

Results flagged for a closer look

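Among 28 sets of group values of the 7 genes, 2 single tumours stood far from the others of their group; chance gives about 1 in 20 such sets. Both concern Emp2, the gene that varied least. In untreated grade 3 tumours, Emp2 was 11.31 in 8584T3, with the nearest other tumour at 11.18. In untreated grade 2 tumours it was 11.14 in 8565T3, with the nearest other tumour at 11.39.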

How the results depend on the processing

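The 7 genes' differences were recomputed under 37 settings, which gave 1267 values: 1209 kept their direction and their side of the threshold, 24 gained a call, 1 lost it, 33 uncalled values changed sign and 0 called values did. Rtkn2 in grade 3 was called in 35 of 36 settings, with differences of 1.64 to 2.27 over all 36. It lost its call with mouse means, the only setting with 1 value per mouse and group. The 35 calls used tumours as replicates. Not all settings are separate fits. Mice 8584 and 8639 had 1 tumour each, so leaving out either mouse repeats the fit without that tumour. For grade in untreated tumours, the fits with sex as a covariate and without 8639T4 gave Fbln1 the same difference, -1.97 (SE 0.36). Mouse 8688, the source of every treated grade 3 tumour, could not be left out, so these settings do not show how far the difference depends on that animal. The number of the 7 genes called in grade 3, 1 as reported, was 2 with no mouse term, with array weights or without mouse 8584, and 0 with mouse means. For grade in untreated tumours, 0 as reported, it was 2 with no mouse term or array weights, and 1 with sex as a covariate, no filter, a floor of log2 5, a repeated quantile normalisation, median centring or without mouse 8639. With array weights it was 2 for treatment in grade 2 and 2 for the difference of treatment differences, both 0 as reported. Leaving out 1 tumour in turn gave 1 to 2 in grade 3, 0 to 1 for the difference of treatment differences, 0 to 1 for grade in untreated tumours and 0 in the others. Over all genes, 34 were called in grade 3, against 272 with no mouse term, 374 with array weights, 64 with no filter, 12 with only the groups compared, 10 with sex and 0 with mouse means; the cause was not tested. In grade 2, 5 were called, against 37 with no mouse term, 1975 with array weights and 0 with mouse means; for grade in untreated tumours 13 were called, against 111, 844 and 0. With 1 tumour left out, the genes called ran from 12 (without 8565T4) to 168 (without 8584T3) in grade 3, from 2 (without 8700T3 or 8565T4) to 35 (without 8584T3) in grade 2, from 2 (without 8565T4) to 98 (without 8565T1) for grade in untreated tumours, and from 0 to 14 (without 8565T1) for the difference of treatment differences. Fbln1, recomputed after its value was seen, kept its call in 27 of 36 settings, with a difference between -2.56 and -1.18 over all 36. No paired analysis was possible because the replicate numbers were given in accession order and pair no tumours, but the mouse links tumours and was fitted as a random block and, for the grade comparisons, as a fixed block that rests on mice 8565 and 8688. Signal over background did not limit the 7 genes, which were above the array median on all arrays.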
